A study of Mus musculus with 6 samples.

Results

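Chromosomes 8 and 11 of the mouse were followed across the 3 antibodies of a ChIP-chip study, in which immunoprecipitated DNA and whole cell extract DNA are hybridised together to promoter tiling arrays. The 2 chromosomes were chosen by the shift of the SMAD1/5 log2 ratio on them and because both are known as the autosomes often gained in mouse embryonic stem cell culture. Every SMAD1/5 value is therefore given as a description, and the SMAD2 and SMAD4 arrays are the ones that did not enter the choice. Together the chromosomes hold 60840 of the 474380 probes of the 2 array designs: 22488 of 237195 on array 1, where chromosome 8 lies, and 38352 of 237185 on array 2, where chromosome 11 lies. Between 0 and 898 of these were removed per array for an outlier flag.

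The cells were R1, a male mouse embryonic stem cell line, kept undifferentiated in knockout serum replacement with leukemia inhibitory factor and without feeder cells. There was no treatment and no altered genotype. Chromatin was cross-linked with formaldehyde, sonicated and precipitated with an antibody to SMAD1/5, SMAD2 or SMAD4. On each of the 6 arrays the precipitate carried the red dye Cy5 and the input, whole cell extract, the green dye Cy3, with no dye swap. Each antibody had 1 sample, on 2 arrays that cover different chromosomes, so no difference below has a replicate or a test. Whether the 3 inputs came from 1 culture was not known here.

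In culture, embryonic stem cells that carry an extra chromosome can outgrow normal cells, and in the mouse an extra chromosome 8 or 11 is a recurrent form of this. A chromosome present in more copies gives more input DNA and more precipitate from every one of its promoters, so both colours rise and their ratio does not. SMAD1 and SMAD5 carry bone morphogenetic protein signals to the nucleus, SMAD2 does so for Nodal and Activin, and both kinds bind SMAD4 as a common partner. Sex chromosome X serves as a scale on array 2, since male cells have a single copy.

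Signal on these arrays varied with the length of the probe, which designs commonly shorten where G and C are frequent, so promoters at the ends of that range are shown before the values. For each chromosome the promoter with the lowest and the one with the highest share of G and C are printed, among the growth and stem cell genes with a single promoter in the RefSeq table. Each is 300 bases around the start site in RefSeq's GRCm38.p6 build, 5′ to 3′, with each CG in capitals.
Zfp42 (chr8:43306960-43307259, minus strand): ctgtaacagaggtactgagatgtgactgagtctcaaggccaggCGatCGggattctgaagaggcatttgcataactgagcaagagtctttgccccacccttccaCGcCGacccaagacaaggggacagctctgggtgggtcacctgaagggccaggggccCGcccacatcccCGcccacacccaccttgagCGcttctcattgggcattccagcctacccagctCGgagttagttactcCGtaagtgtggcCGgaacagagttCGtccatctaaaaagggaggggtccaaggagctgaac
Ctcf (chr8:105636288-105636587, plus strand): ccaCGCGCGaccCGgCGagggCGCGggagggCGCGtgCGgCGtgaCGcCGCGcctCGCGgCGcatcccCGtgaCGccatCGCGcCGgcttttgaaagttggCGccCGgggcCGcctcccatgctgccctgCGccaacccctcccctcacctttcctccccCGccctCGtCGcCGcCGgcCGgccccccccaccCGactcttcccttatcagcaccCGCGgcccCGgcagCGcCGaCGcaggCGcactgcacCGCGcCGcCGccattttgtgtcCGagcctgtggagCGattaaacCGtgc
Top2a (chr11:99024140-99024439, minus strand): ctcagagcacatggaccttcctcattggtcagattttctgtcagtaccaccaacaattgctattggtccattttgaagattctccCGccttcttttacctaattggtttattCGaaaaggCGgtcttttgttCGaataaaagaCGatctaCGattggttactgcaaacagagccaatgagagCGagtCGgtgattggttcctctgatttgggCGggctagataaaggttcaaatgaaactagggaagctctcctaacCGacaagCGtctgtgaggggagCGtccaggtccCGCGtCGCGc
Nf1 (chr11:79339642-79339941, plus strand): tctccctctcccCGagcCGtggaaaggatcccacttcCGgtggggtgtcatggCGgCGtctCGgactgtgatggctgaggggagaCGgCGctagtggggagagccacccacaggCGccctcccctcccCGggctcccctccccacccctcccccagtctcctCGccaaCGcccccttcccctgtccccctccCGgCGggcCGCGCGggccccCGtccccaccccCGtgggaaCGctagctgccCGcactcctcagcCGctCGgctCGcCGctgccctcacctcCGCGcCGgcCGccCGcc
Zfp42, a zinc finger gene used as a marker of undifferentiated cells, has 57.7% G and C and 11 CG steps, and Ctcf, which encodes an insulator-binding protein, has 75.3% and 47. On chromosome 11, Top2a, the DNA topoisomerase of dividing cells, has 47.7% and 16, and Nf1, a brake on Ras signalling, has 75.7% and 30. The median promoter had 59.7% G and C on chromosome 8 against 58% on the other autosomes of array 1, and 59% on chromosome 11 against 58.3% on those of array 2. Probes were shorter on both chromosomes. Their mean length was 53.7 ± 6.03 bases (SD over 22488 probes) on chromosome 8 and 53.6 ± 5.99 (SD over 38352 probes) on chromosome 11, against 54.5 on the other autosomes of either array and 56.0 on X.

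Chromosome 8 had the highest median input signal of the 9 autosomes of array 1 with every antibody. The difference between the median probe of chromosome 8 and that of the other autosomes was 0.49 on the log2 scale with SMAD1/5, 0.51 with SMAD2 and 0.69 with SMAD4, or 1.40-, 1.42- and 1.61-fold. The next highest autosome was chromosome 4 each time, at 0.20, 0.20 and 0.18. Chromosome 8 thus stood well apart from its neighbour in the order, and the SD over the other autosomes was 0.20, 0.16 and 0.14.

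The precipitates of chromosome 8 were raised too. Their difference was 0.67 with SMAD1/5, 0.52 with SMAD2 and 0.65 with SMAD4, again the highest of the 9 autosomes, with an SD over the others of 0.14, 0.18 and 0.16. Both colours of the SMAD2 and SMAD4 arrays moved by nearly the same amount, so the log2 ratio of precipitate to input, centred on the array median, stayed at 0.02 with SMAD2 and -0.01 with SMAD4. These rank 3 and 7 of the 9 autosomes. With SMAD1/5 the precipitate rose by more than the input and the ratio was 0.45, the value that chose the chromosome. In the authors' deposited log2 values the SMAD1/5 shift was 0.12, and after loess within the array 0.19.

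Chromosome 11 had the highest median input of the 11 autosomes of array 2 with every antibody. The input difference was 0.46 with SMAD1/5, 0.54 with SMAD2 and 0.75 with SMAD4, or 1.37-, 1.45- and 1.69-fold. The precipitate difference was 0.59, 0.60 and 0.73 in the same order. The next autosome was chromosome 17 in the input, at 0.18, 0.23 and 0.18, and chromosome 15 in the precipitate, at 0.08, 0.27 and 0.22. The ratio of chromosome 11 was 0.06 with SMAD2 and -0.01 with SMAD4, against 0.29 with SMAD1/5. With the normexp background model the SMAD2 ratio of chromosome 11 turned to -0.41, and the SMAD1/5 ratio was 0.15 in the authors' deposited log2 values. Normexp also narrowed the SMAD2 precipitate of array 2. The SD over 5 Mb bins of the other autosomes was 0.024 there, against 0.46 in the processed signals. In the SMAD2 input it was 0.31 against 0.39. Both chromosomes therefore shared 1 pattern, with raised signal in both colours of all 6 arrays and a raised ratio on the SMAD1/5 arrays.

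**Figure D1:**
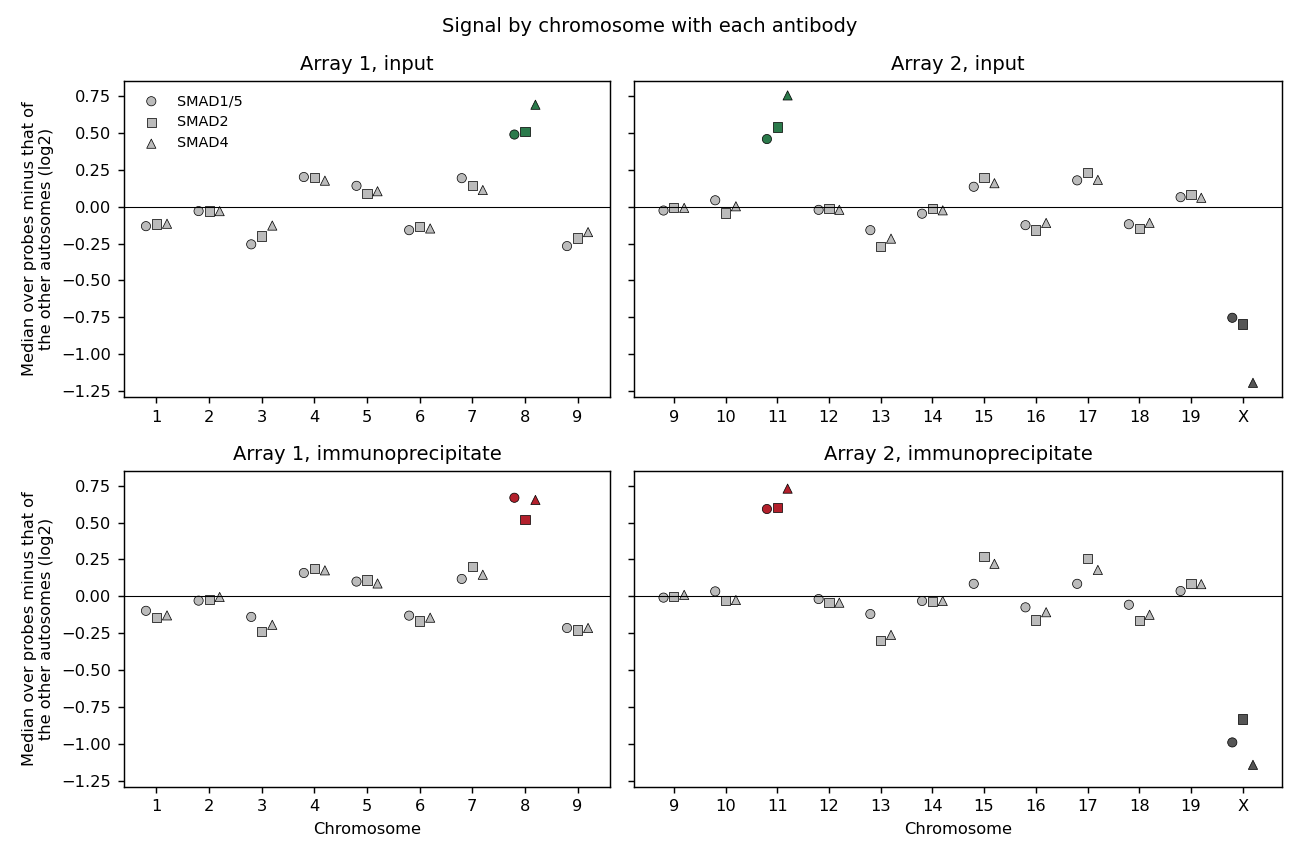
Median log2 signal of each chromosome minus the median over the other autosomes of the same array (vertical axis), for input (upper row) and immunoprecipitate (lower row), with 1 symbol for each antibody. Chromosomes 8 and 11 are coloured and lie between 0.46 and 0.75 in every panel, the other autosomes are light grey and lie between -0.30 and 0.27, and X is dark grey.

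Matching probes on length and annotation class made the input shifts smaller, and all stayed above 0. When each probe was set against the other autosomes' median for its length and annotation class, the input of chromosome 8 was higher by 0.30 with SMAD1/5 (0.49 before matching), 0.36 with SMAD2 and 0.57 with SMAD4, and the precipitate by 0.56, 0.38 and 0.54. For chromosome 11 the matched input was higher by 0.33, 0.37 and 0.63 and the precipitate by 0.53, 0.41 and 0.59. Matching drew the other autosomes together. In the input they lay between -0.08 and 0.08 on array 1 and between -0.07 and 0.07 on array 2, and in the precipitate between -0.14 and 0.08 and between -0.10 and 0.08. With SMAD1/5, SMAD2 and SMAD4 the matched input came to 1.23-, 1.28- and 1.49-fold on chromosome 8. On chromosome 11 it came to 1.25-, 1.29- and 1.55-fold. For scale, 3 copies against 2 are a 1.5-fold difference, or 0.58 on the log2 scale.

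X moved the opposite way on the same arrays. Its matched input was -0.56 with SMAD1/5, -0.54 with SMAD2 and -1.0 with SMAD4, where 1 copy against 2 would be -1 on the log2 scale. The arrays thus differed in how far they spread a known difference, with SMAD4 spreading it most. Divided by the size of the X shift of its own array and channel, the matched shift of chromosome 11 was 0.58 in the SMAD1/5 input, 0.69 in the SMAD2 input and 0.63 in the SMAD4 input. The same quotient for the precipitates was 0.60, 0.71 and 0.64. Both shifts varied with probe length, so such a quotient depends on the probes used. Among probes of 60 bases the input of chromosome 11 and X was at 0.57 and -0.83 with SMAD1/5, and 0.58 and -0.69 with SMAD2. Among probes of 45 to 46 bases these were 0.02 and -0.13, and 0.16 and -0.15. With SMAD4 they were 0.77 and -1.20 at 60 bases and 0.46 and -0.49 at 45 to 46. Probes of 60 bases were 34.0% on chromosome 11 and 53.7% on X. X is not on array 1, so chromosome 8 has no such scale. No other measure of copy number was analysed here, and copy number as the source of these shifts was not tested.

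The same channel compared probe by probe between antibodies leaves out what a probe shares across arrays. The SMAD4 input of chromosome 8 exceeded the SMAD2 input by 0.26 more than on the other autosomes (a SMAD2 minus SMAD4 difference of -0.26, with the others between -0.04 and 0.03). For chromosome 11 this difference was -0.30, and for X it was 0.63. With normexp it was -0.05 on chromosome 8, inside the range of the other autosomes (-0.07 to 0.03), -0.14 on chromosome 11 and 0.14 on X. SMAD1/5 minus SMAD4 gave -0.39 on chromosome 8, -0.37 on chromosome 11 and 0.66 on X in the input. In the processed signals the SMAD4 inputs thus held both the largest rise of chromosomes 8 and 11 and the largest fall of X. In the precipitates SMAD1/5 minus SMAD4 lay within the range of the other autosomes, at -0.01 on chromosome 8 and -0.12 on chromosome 11. It lay below that range with only probes well above background, at -0.05 and -0.15, and with normexp, at -0.29 and -0.34. The pairs share samples and are not independent of each other.

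Signal strength differed between the arrays, with the dimmest input on the SMAD1/5 arrays. The median input spot of chromosome 8 was 2.53 times its local background with SMAD1/5, 9.51 times with SMAD2 and 7.39 times with SMAD4. The share of chromosome 8 probes with input well above background was 81.1% with SMAD1/5, 93.0% with SMAD2 and 99.9% with SMAD4, against 71.4%, 87.9% and 99.6% on the other autosomes. For chromosome 11 it was 92.9%, 91.7% and 99.9%, against 86.9%, 85.7% and 99.7%. More probes of the 2 chromosomes thus cleared the background on every array. With only the probes well above background in both channels, the SMAD1/5 input shift was 0.15 on chromosome 8 and 0.31 on chromosome 11, and that of SMAD2 0.34 on both. With the normexp background model in place of the processed signals, the SMAD1/5 input shift was 0.05 on chromosome 8 and 0.02 on chromosome 11 and the SMAD2 precipitate shift of chromosome 11 was 0.04. The SD over 5 Mb bins of the other autosomes was then 0.038, 0.0088 and 0.024, against 0.43, 0.29 and 0.46 in the processed signals. Under normexp 19 of 26 bins were above the other autosomes in the first of these, against 33.8% of theirs. In the second 25 of 25 were above, against 32.5%, and in the third 22 of 25, against 31.6%.

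Most bins along chromosome 8 were raised. Over its 26 bins of 5 Mb, with probes matched on length and class, the SMAD4 input was above the other autosomes in 25 bins, the SMAD2 input in 25 and the SMAD1/5 input in 23. Of the 234 bins of the other autosomes, 47.4%, 43.2% and 44.9% were above in the same order. The precipitate was above in 24 bins with SMAD4, 24 with SMAD2 and 25 with SMAD1/5, against 44%, 39.3% and 44.9%. The median bin of chromosome 8 was 0.57 in the SMAD4 input, higher than every bin of the other autosomes, and 0.38 in the SMAD2 input, higher than all but 0.427% of them.

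The input of chromosome 8 was below 0 in 3 bins, each with some of the antibodies. The SMAD4 input was at -0.09 in the bin from 50 to 55 Mb, which holds 456 probes, and at 0.09 in the bin from 95 to 100 Mb, which holds 51. The SMAD2 input was at -0.20 from 5 to 10 Mb, which holds 229 probes, where SMAD4 was at 0.45. The SMAD1/5 input was below 0 in all 3 of these bins, at -0.05, -0.13 and -0.08. No other bin of chromosome 8 was below 0 in any input. The precipitate from 50 to 55 Mb was at -0.17 with SMAD4, -0.36 with SMAD2 and 0.05 with SMAD1/5, and from 95 to 100 Mb at -0.04, -0.10 and -0.18. Both ends of the chromosome were high: the first bin was at 0.79 in the SMAD4 input and the last at 0.65.

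**Figure D2:**
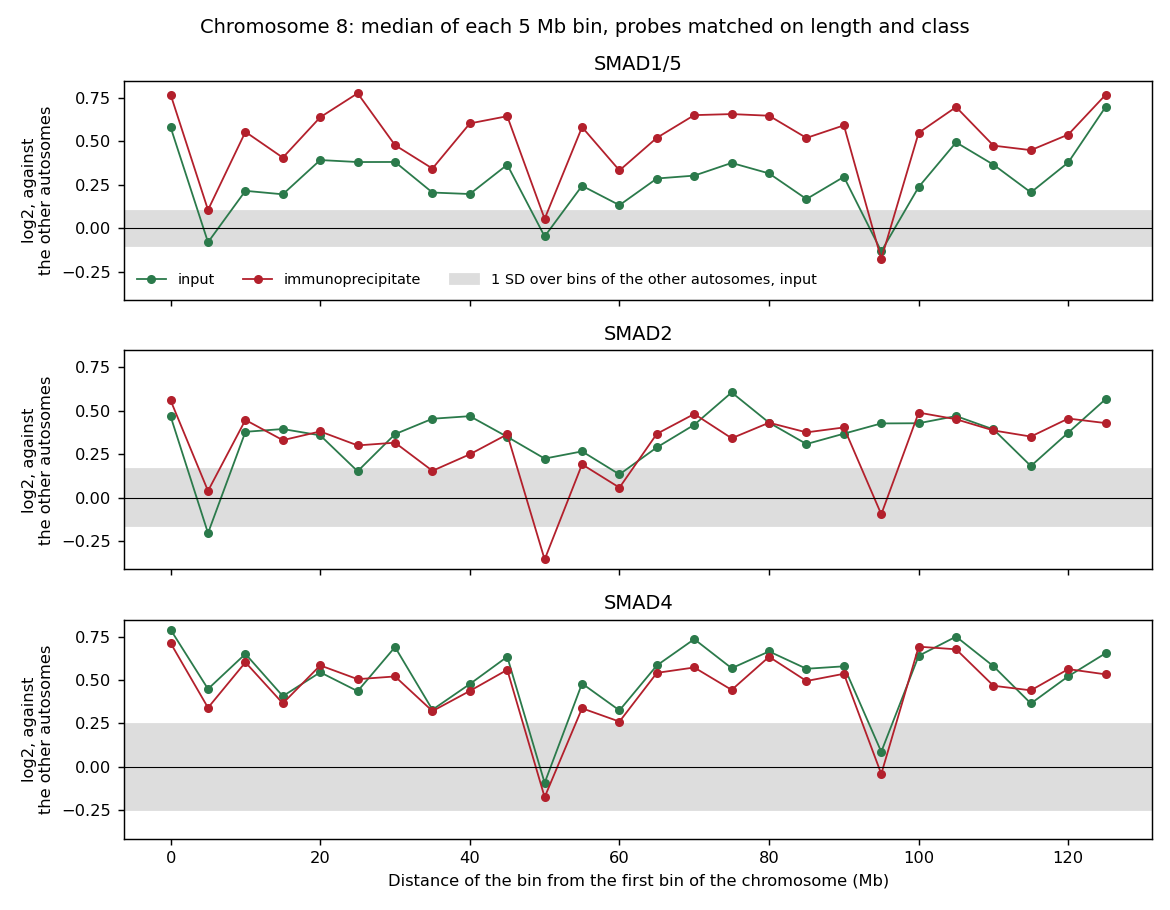
Median input and immunoprecipitate of each 5 Mb bin of chromosome 8 against probes of the same length and class on the other autosomes (log2), by distance from the first bin in Mb, with 1 panel for each antibody. The grey band is 1 SD over the input bins of the other autosomes. SMAD4 input lies above 0 in 25 of 26 bins, with dips 50 Mb and 95 Mb from the first bin.

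Chromosome 11 was above 0 in every bin. All 25 were above 0 in input and precipitate with each antibody, against 46.6%, 43.7% and 47.6% of the 206 bins of the other autosomes in the SMAD4, SMAD2 and SMAD1/5 inputs and 40.8%, 38.3% and 45.1% in the precipitates. The SMAD4 input ranged from 0.46, at 110 to 115 Mb, to 0.84, at 10 to 15 Mb, and the SMAD2 input from 0.19, at 90 to 95 Mb, to 0.58, at 20 to 25 Mb. The SD over bins of chromosome 11 was 0.09 in both, less than the 0.24 and 0.17 over bins of the other autosomes. Bins were not matched on probe number, and chromosome 11 had 38352 probes for 25 bins against 181241 for 206. Some bins lay within 1 SD of the other autosomes: the SMAD1/5 input fell to 0.13 from 120 to 125 Mb, with an SD over the others of 0.15, and the SMAD2 precipitate to 0.14 from 10 to 15 Mb, with an SD of 0.22.

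**Figure D3:**
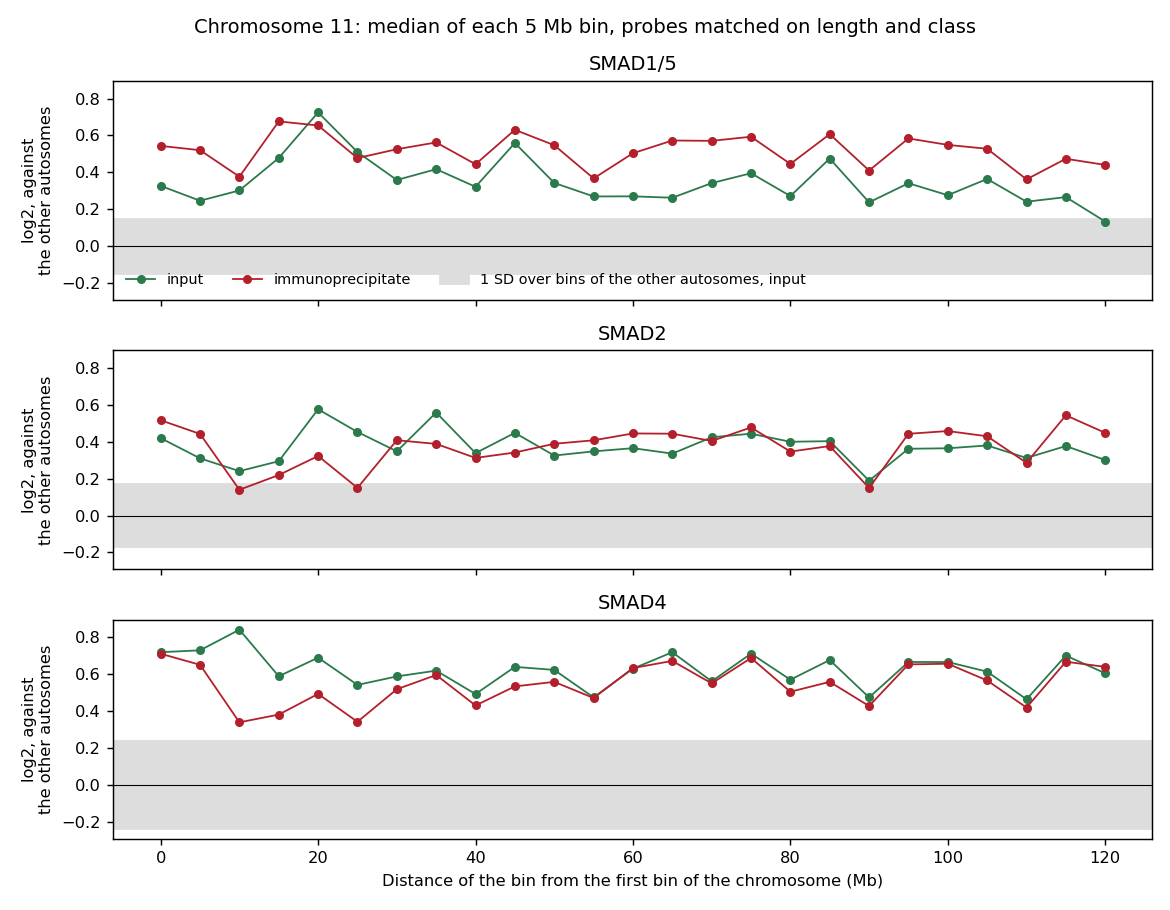
Median input and immunoprecipitate of each 5 Mb bin of chromosome 11 against probes of the same length and class on the other autosomes (log2), by distance from the first bin in Mb, with 1 panel for each antibody. The grey band is 1 SD over the input bins of the other autosomes. All 25 bins lie above 0 in both channels with every antibody.

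The log2 ratio along the chromosomes separated SMAD1/5 from the others. With SMAD1/5 the bin median was above the array median in 26 of 26 bins of chromosome 8 and 25 of 25 of chromosome 11, against 43.2% and 51.5% of the other autosomes' bins, which describes the values that chose the chromosomes. With SMAD2 it was above in 13 bins of chromosome 8 and 18 of chromosome 11, against 42.7% and 43.2%. With SMAD4 it was above in 7 and 7, against 42.3% and 41.7%. The median bin was -0.01 and 0.03 with SMAD2 and -0.04 and -0.01 with SMAD4, well inside the SD over bins of the other autosomes, which was 0.09 to 0.11.

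Long probes carried more of the shift than short ones. Among probes of 60 bases the SMAD4 input difference was 0.72 on chromosome 8 and 0.77 on chromosome 11, and among probes of 45 to 46 bases it was 0.38 and 0.46. With SMAD2 these were 0.61 and 0.58 for the long probes and 0.10 and 0.16 for the short ones, and with SMAD1/5 0.39 and 0.57 against 0.04 and 0.02. X showed the same trend downward in the SMAD4 input, from -0.49 at 45 to 46 bases to -1.20 at 60. Short probes were also the bright ones, at 1.06 above the median input of the other autosomes' probes on SMAD4 array 1, where probes of 60 bases were at -0.74. Along the distribution of probes the antibodies differed. In the SMAD4 input of chromosome 8 it was 1.09 at percentile 5 of probes, 0.69 at the median and 0.41 at percentile 95. On chromosome 11 these were 1.23, 0.75 and 0.45, so the SMAD4 shift shrank toward the bright end. The SMAD2 input of chromosome 8 was 0.17, 0.51 and 0.20 at the same points, and the SMAD1/5 input was 0.03, 0.49 and 0.59. These were largest in the middle and at the bright end.

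**Figure D4:**
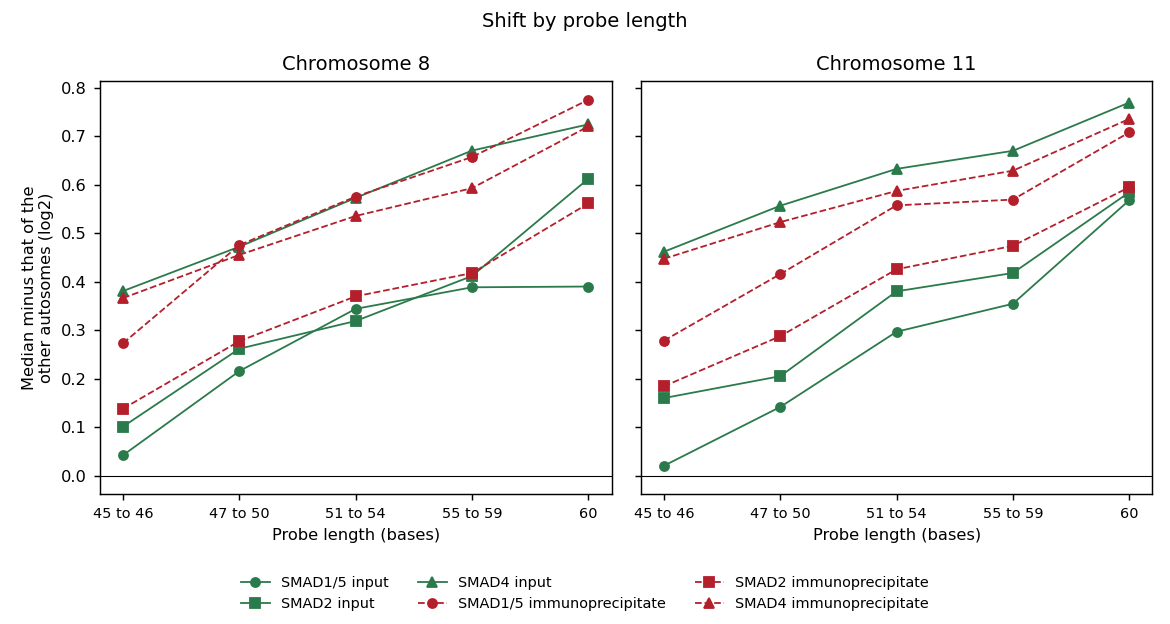
Difference between the median probe of chromosome 8 (left) or 11 (right) and that of the other autosomes (log2), by probe length in bases, with 1 line for each antibody and channel (solid for input, dashed for immunoprecipitate). In the SMAD4 input the difference runs from 0.38 to 0.72 on chromosome 8 and from 0.46 to 0.77 on chromosome 11.

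Probes near and far from start sites were both raised. Within 1000 bp of a start site the SMAD4 input difference was 0.60 on chromosome 8 and 0.67 on chromosome 11, and farther away it was 0.72 and 0.78. Probes upstream of genes and probes inside genes were both raised, at 0.70 and 0.62 on chromosome 8 and at 0.78 and 0.71 on chromosome 11. The few probes downstream of genes were higher, at 1.28 (365 probes) and 0.86 (772 probes) with SMAD4 and at 0.82 and 0.65 with SMAD2. The SMAD2 input gave 0.41 and 0.43 near start sites and 0.54 and 0.59 farther away. By promoter composition, the SMAD4 input of chromosome 8 genes was higher by 0.97 in the class with the least G and C (136 genes), 0.66 in the middle class (212) and 0.62 in the class with the most (215). For chromosome 11 the split gave 0.75, 0.64 and 0.71 and is void, since 73.5% of its genes had a promoter in the table, under the 80% set for it. The median position of spots on the glass was alike, with a median row of 266 and column of 227 for chromosome 8 and 268 and 229 for the other autosomes. For chromosome 11 these were 267 and 228, against 268 and 228. An effect of the place on the glass was not tested.

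Gene by gene, most promoters of both chromosomes lay above the other autosomes. A gene's value is the mean over its probes, at least 5, matched on length and class and set against the median gene of the other autosomes, above which 50% of their genes lie by construction. In the SMAD4 input 755 of 839 genes of chromosome 8 and 1272 of 1384 of chromosome 11 (91.9%) were above it. In the SMAD2 input 660 (78.7%) and 1135 (82.0%) were above, and in the SMAD1/5 input 582 (69.4%) and 1040 (75.1%). The precipitates gave 764 and 1286 genes with SMAD4, 705 and 1228 with SMAD2 and 741 and 1281 with SMAD1/5. The median gene was 0.58 ± 0.48 (SD over genes) on chromosome 8 and 0.65 ± 0.43 on chromosome 11 in the SMAD4 input.

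Growth and stem cell genes of chromosome 8 were mostly above the other autosomes, as were all genes of the chromosome. All 15 measured were above 0 in the SMAD4 input, with a median of 0.57. In the SMAD2 input 13 were (86.7%, median 0.57) and in the SMAD1/5 input 14 (93.3%, median 0.46). Irs2 had too few probes. Of all 839 genes of the chromosome, 755 were above 0 in the SMAD4 input, with a median of 0.58. The list thus did not stand above the chromosome there. In the SMAD2 and SMAD1/5 inputs 78.7% (median 0.31) and 69.4% (0.28) of all genes were above 0. The differences were not tested. Cdh1, which encodes E-cadherin, was at 1.34 in the SMAD4 input, 0.77 with SMAD2 and 0.47 with SMAD1/5. Zfp42 was at 0.67, 0.57 and 1.01 in the same order, and Ctcf at 0.42, 0.42 and 0.32. The 2 genes whose promoters mark the ends of composition here were therefore both raised in all 3 inputs. Klf2, a pluripotency transcription factor, was at 0.92, 0.62 and 0.10, and Tfdp1, the partner of the E2F factors, at 1.39, 0.63 and 0.46. Smad1, a target of the SMAD1/5 antibody itself, was at 0.47, 0.41 and 0.61. E2f4, a repressor of cell cycle genes, was the lowest in the SMAD4 input at 0.15. Probes within a gene scattered widely, for example with an SD of 1.26 over the 34 probes of Cdh1 in the SMAD4 input, so the level of a single gene is loosely measured.

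Growth and stem cell genes of chromosome 11 were above 0 in 19 of 20 in the SMAD4 input (median 0.86), 17 in the SMAD2 input (0.30) and 16 in the SMAD1/5 input (0.45). These are 95%, 85% and 80% of the list. Of all genes of the chromosome 91.9% (median 0.65), 82.0% (0.28) and 75.1% (0.34) were above 0. Stat5b had too few probes. Trp53, which encodes the tumour suppressor p53, was the highest in the SMAD4 input at 1.64, with 0.58 in the SMAD2 and 0.97 in the SMAD1/5 input. Nf1 was at 1.46, 0.83 and 0.84, and Top2a at 1.28, 0.17 and 1.66. Stat3, the transcription factor on which leukemia inhibitory factor acts, was at 1.21, 0.25 and 0.80. Lif, the gene of that factor, was at 0.57, -0.03 and -0.22, and Socs3, a feedback inhibitor of the pathway, at 0.82, 0.16 and 0.65. Egfr, a growth factor receptor, was the 1 gene of the list not above 0 in the SMAD4 input, at -0.08. The order of genes within the list thus differed from antibody to antibody.

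With probes matched, developmental regulators had lower medians than all genes of their chromosome in each input, though by little with SMAD1/5 on chromosome 8. The differences were not tested on either chromosome. On chromosome 8 the median of 12 genes was 0.32 in the SMAD4 input, with 10 above 0, and -0.03 in the SMAD2 input, with 6 above 0, against 0.58 and 0.31 for all genes. With SMAD1/5 it was 0.25, with 8 above 0, against 0.28. Without matching, the SMAD4 median was 0.43 against 0.44 for the growth and stem cell genes. Nrg1 was not measured. In the SMAD4 and SMAD2 inputs Foxf1, a factor of lung and gut mesoderm, was at -0.32 and -0.73, and Zfhx3, a homeobox factor, at 0.51 and 0.21. On chromosome 11 the median of 19 genes was 0.42 with SMAD4, with 16 above 0, against 0.65 for all genes. With SMAD2 it was 0.07, with 10 above 0, against 0.28. With SMAD1/5 it was 0.02, with 11 above 0, against 0.34. These counts are 84.2%, 52.6% and 57.9% of the list, against 91.9%, 82.0% and 75.1% of all genes. Without matching, the medians were 0.67, 0.45 and 0.34, against 0.76, 0.45 and 0.48. Hoxb2, Hoxb7 and Hoxb8 were not measured. Hoxb13, at the posterior end of the HoxB cluster, was at 1.49 with SMAD4 and 0.78 with SMAD2, and Hoxb9 at -0.05 and -0.09. These lists have the shorter probes, with means of 52.6 and 52.0 bases.

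The 4 metallothionein genes of chromosome 8, which encode metal-binding proteins, lay together and high in the SMAD4 input but not in every input. In the SMAD4 input Mt1 was at 1.28, Mt2 at 1.02, Mt3 at 1.35 and Mt4 at 1.15. In the SMAD2 input they were at 0.57, 0.12, 0.71 and 0.38. All genes of the chromosome had medians of 0.58 and 0.31 in these inputs. In the SMAD1/5 input the median of the 4 genes was 0.30, with the lowest at 0.03, against 0.28 for all genes. The precipitates were raised as well, with medians of 0.95 with SMAD4, 0.62 with SMAD2 and 1.22 with SMAD1/5, against 0.50, 0.33 and 0.60 for all genes. The genes are neighbours, so they are not 4 separate measurements.

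Gene families with promoters poor in G and C had low medians in the SMAD4 input but not all of them in the others. Defensin genes, which encode antimicrobial peptides and cluster on chromosome 8, were above 0 in 13 of 20 in the SMAD4 input (median 0.09) and in 14 in the SMAD2 input (0.42, against 0.31 for all genes of the chromosome). Their median promoter had 47.3% G and C and their mean probe 57.2 bases. On chromosome 11 olfactory receptor genes were above 0 in 37 of 72 with SMAD4 (0.02) and in 62 with SMAD2 (0.29, against 0.28 for all genes). With SMAD1/5 they had a median of 0.46 against 0.34. With SMAD4 and SMAD2, chemokine genes were above 0 in 7 of 11 (0.11) and 8 (0.11), and keratin genes in 24 of 33 (0.31) and 22 (0.11). As shares these are 63.6% and 72.7% for chemokine genes, 72.7% and 66.7% for keratin genes and 51.4% and 86.1% for olfactory receptor genes. Of all genes of chromosome 11, 91.9% and 82.0% were above 0. Without matching, the SMAD4 input of the olfactory receptor genes had a median of -0.57, below the other autosomes. The 4 olfactory receptor genes of chromosome 8 were above 0 in 3 of 4 with SMAD4, with a median of 0.20 against 0.58 for all genes. What sets these families apart was not tested.

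**Figure D5:**
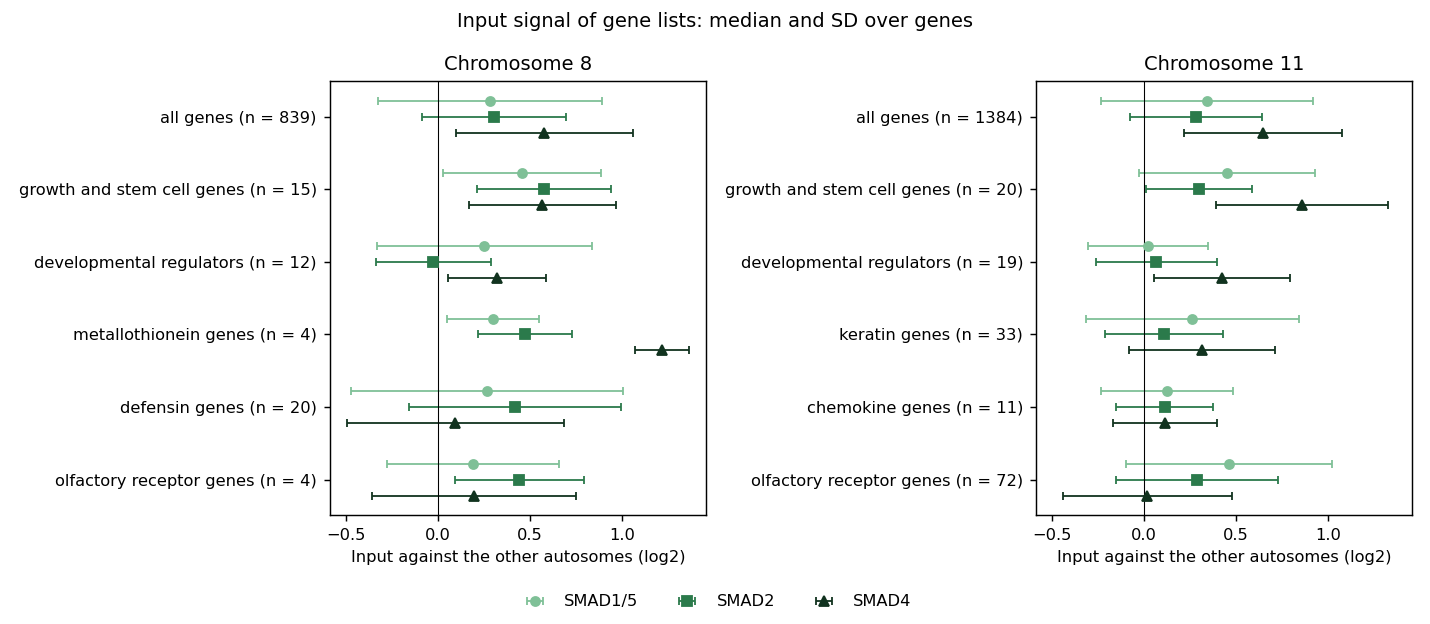
Input signal of all genes and of gene lists on chromosome 8 (left) and chromosome 11 (right), as the median over genes and its SD over genes (bars), in log2 against the median gene of the other autosomes with probes matched on length and class. In the SMAD4 input (triangles) the metallothionein genes lie at 1.22 and the olfactory receptor genes of chromosome 11 at 0.02.

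Genes with a high window made up a smaller share of both chromosomes than of the other autosomes with SMAD4, in the processed signals. A window, the mean log2 ratio of at least 3 probes within 500 bp, was called high where it lay at least 4 robust SDs above the array's median window, and low likewise below. With SMAD4, 3 of 845 genes of chromosome 8 (0.355%) had a high window against 2.87% of genes of the other autosomes, and 7 of 1388 of chromosome 11 (0.504%) against 1.95%. With SMAD2 these were 3 genes (0.355%) against 0.0925%, and 1 gene (0.0720%) against 0%. SMAD1/5 called no gene high on either chromosome or elsewhere in these signals, at 0% and 0%. This depended on the processing. With normexp SMAD1/5 called 15.5% of genes high on chromosome 8, against 4.63%, and 14.4% on chromosome 11, against 2.80%. In the authors' deposited values these were 0.355% against 0.159% and 0.576% against 0.0786%. The differences were not tested. With normexp the SMAD4 order turned, at 0.118% against 0.0793% on chromosome 8 and 0.865% against 0.519% on chromosome 11. In the authors' deposited values it was 0.237% against 0.516% and 0.504% against 0.550%. The upper tail of the SMAD4 ratio was shorter on these chromosomes, since percentile 95 of single probes was lower by 0.44 on chromosome 8 and by 0.45 on chromosome 11 than on the other autosomes.

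At the SMAD4 high windows named here the SMAD4 input lay below the other inputs. Windows were chosen by their ratio to this same input, so the choice itself favours a low input. Named are the 3 genes of chromosome 8 and the top 5 of the 7 of chromosome 11. Alox12, which encodes an arachidonate lipoxygenase, had the highest SMAD4 window at 3.1 ± 0.42 (SD over 3 probes), at 70334439 to 70334867 on chromosome 11 in the array's own positions, whose build is not stated, 2452 bp from the start site and inside the gene. There the SMAD4 input was lower by 2.18 than the mean of the other 2 inputs (a difference of -2.18), and its precipitate differed by -0.19. Tns4, of focal adhesions, followed at 2.95 ± 0.54 over 3 probes, then the olfactory receptor genes Olfr1378 at 2.70 ± 0.32 over 3 and Olfr1383 at 2.53 ± 0.91 over 4, and G6pc, of glucose release by the liver, at 2.42 ± 1.01 over 3. On chromosome 8 the SMAD4 windows were at Cog2, of the Golgi, at 2.54 ± 0.88 over 3 probes, at 6030452D12Rik at 2.54 ± 1.11 over 5 and at Irx6, a homeobox gene, at 2.35 ± 1.19 over 5. In all 8 of these the input was below the other inputs, most at 6030452D12Rik with a difference of -4.16, and the precipitate differed by between -1.11 and 0.75.

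SMAD2 had 3 high windows on chromosome 8 and 1 on chromosome 11. Pard3, a cell polarity gene, was at 3.15 ± 3.54 (SD over 3 probes), so wide that the probes did not share a level. Slc35e1, of a transporter family, was at 2.39 ± 0.43 over 3 probes and Rfwd3, a ubiquitin ligase gene, at 2.36 ± 1.38 over 3. Per1, a gene of the circadian clock on chromosome 11, was at 2.46 ± 0.55 over 4 probes, at 69176650 to 69177397 and 3467 bp from the start site. The SMAD2 precipitate at Per1 was above the mean of the other precipitates by 0.70, and the input below the other inputs, at -2.70. Choice by the ratio to this input favours both.

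With each array's own input as denominator, most low windows lay on the SMAD1/5 arrays. With SMAD1/5, 14 genes of chromosome 8 (1.66%) and 50 of chromosome 11 (3.60%) had one, close to the 1.78% and 3.62% of the other autosomes. With SMAD2 they were 1 gene (0.118%) and 4 genes (0.288%), against 0.304% and 0.393%, and with SMAD4 0 and 0, against 0.0529% and 0.0157%. With the mean input of the 3 antibodies as denominator the low genes were 0 and 1 with SMAD1/5 and 34 and 50 with SMAD2. The SMAD1/5 shares were 0% and 0.0720%, against 0.198% and 0.236% on the other autosomes. The SMAD2 shares were 4.02% and 3.60%, not far from the 3.33% and 2.77% there. With each chromosome centred on its own median the SMAD1/5 shares were 3.55% against 1.67% and 5.69% against 4.18%. The lowest on chromosome 8 were Mon1b, of endosome maturation, at -6.51 ± 0.94 over 4 probes, and a window shared by Nxnl1 and Slc27a1 at -6.02 ± 0.95 over 3. On chromosome 11 they were Crk, an adaptor of kinase signalling, at -6.14 ± 0.89 over 4 probes, Olfr1377 at -6.12 ± 0.23 over 3 and P3h4 at -5.80 ± 4.95 over 3. At each of these the SMAD1/5 input was above the other inputs, by 4.98 to 8.31, which choice by a low ratio to this input favours. The SMAD2 lows were Tbc1d9 on chromosome 8, at -2.24 ± 0.42, and on chromosome 11 a window shared by Mtif2 and Prorsd1, at -2.28 ± 0.63, and Timd4, at -2.22 ± 0.66, each over 3 probes. The remaining gene, Mis12, of the kinetochore, was at -2.16 ± 0.51 over 3 probes and was named after its value was seen.

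Over whole promoters the highest and the lowest gene by mean ratio differed from antibody to antibody. Man2b1, a lysosomal mannosidase gene of chromosome 8, had the highest mean SMAD1/5 ratio at 1.73, with -0.18 in SMAD2 and -0.32 in SMAD4. Pbx4 was the highest with SMAD2 at 1.00, with 0.49 in SMAD1/5 and -0.23 in SMAD4. Defb15, a defensin gene, was the highest with SMAD4 at 1.14 and among the highest 3 with SMAD2 at 0.87, with a SMAD4 input of -1.51 against the other autosomes' genes. On chromosome 11, Slc38a10 led with SMAD1/5 at 1.38, Psmb3, a proteasome subunit gene, with SMAD2 at 0.95 and Olfr1396 with SMAD4 at 0.90. The lowest were Spaca7 at -1.96, Anapc10 at -0.89 and Adgre5 at -0.84 on chromosome 8, and Fbf1 at -2.18, Omg at -0.85 and Tmem88 at -0.79 on chromosome 11, in the order SMAD1/5, SMAD2, SMAD4. The SMAD1/5 lows had a high input and a precipitate that was not low, against the other autosomes' genes. Spaca7 was at 1.94 in the input and 0.19 in the precipitate, with a ratio SD of 2.80 over 28 probes. Fbf1 was at 3.60 and 1.53, with an SD of 2.52 over 8 probes. None of these 12 genes was also the first or last of its chromosome with another antibody.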

How the data were processed

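Chromatin of R1 cells was measured on 6 arrays of 2 colours, 2 for each of 3 antibodies. Per the file headers, the deposited intensities are Agilent Feature Extraction signals (version 9.1.3.1 for SMAD1/5 and SMAD2, 9.5.3.1 for SMAD4), background-subtracted and dye-normalized by the scanner software. The deposited log2 values are the authors' own, made with limma per the submitters' processing notes. Outlier and background flags are as deposited. The build of the probe positions is not stated in the sources used.

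The members, gene lists and comparisons were chosen with earlier results of these data known. Control spots and probes flagged as outliers were removed. Input and immunoprecipitate are log2 of the processed signals and the log2 ratio is their difference, centred on the array median. A chromosome's shift is its median minus that of the other autosomes of the same array. Matching subtracts the other autosomes' median for each probe length and annotation class. Bins are 5 Mb with at least 20 probes. Windows hold at least 3 probes within 500 bp, with z of at least 4 and at least 2 probes beyond percentile 95. Genes need 5 probes, and 8 to be named. Of 17094 gene names, 16103 were matched by accession, 373 by older symbol and 354 by symbol, and 264 were kept as in the files. Named were members of the gene lists, the 3 highest and 3 lowest genes by mean ratio, all high genes where 5 or fewer and otherwise the top 5, and the 3 lowest low genes. Each antibody had 1 biological sample, so no test was run and the precision is limited by that number. The scripts, run with R 4.3.3, limma 3.58.1, Python 3.11.15, numpy 2.4.6 and pandas 2.3.3, were tested on simulated data. Alternatives were normexp (offset 50), loess, the authors' deposited values, filters on dim probes and on position, other denominators and summaries over genes.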

Additional observations from a re-analysis of the deposited data

Results flagged for a closer look

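The log2 ratio of the chromosomes differed in sign between antibodies. On chromosome 8 the shift against the other autosomes was 0.45 with SMAD1/5, 0.022 with SMAD2 and -0.013 with SMAD4, and on chromosome 11 it was 0.29, 0.057 and -0.010. The SMAD4 values, and the SMAD2 value of chromosome 8, were smaller in size than the SD over the other autosomes, which was 0.032 on both arrays with SMAD4 and 0.036 on array 1 with SMAD2. Signs also turned with the processing: on chromosomes 8 and 11 SMAD4 was 0.12 and 0.065 with normexp, 0.077 and 0.10 with loess and 0.062 and 0.079 in the authors' deposited values, and SMAD2 on chromosome 11 was -0.41 with normexp. The SMAD2 precipitate of array 2 was then narrow, with an SD over 5 Mb bins of the other autosomes of 0.024, against 0.46 in the processed signals. With 1 sample for each antibody the difference was not tested, and the SMAD1/5 values chose the chromosomes.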

How the results depend on the processing

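No paired analysis was possible because each antibody had 1 sample, and the number in the labels is that of the array. For the same reason no replicate could be left out. The trend on promoter composition was not run for chromosome 11, where 73.5% of genes had a promoter. Values below are log2 shifts in the order named. No input shift of SMAD2 or SMAD4 changed sign under any alternative run; where a value moved, the cause was not tested. With normexp the ratio of chromosome 8 was 0.14, 0.12 and 0.12 (SMAD1/5, SMAD2, SMAD4) and that of chromosome 11 0.21, -0.41 and 0.065. The SMAD1/5 input was then 0.050 and 0.018 and the precipitate 0.26 and 0.28 on chromosomes 8 and 11, with 0.60 for the SMAD4 input and 0.045 for the SMAD2 precipitate of chromosome 11. Under normexp the SMAD1/5 input of both arrays and the SMAD2 precipitate of array 2 also spread far less over the other autosomes' bins. High and low genes were then 131 and 236 (SMAD1/5) and 0 and 0 (SMAD2) on chromosome 8, and 200 and 155 (SMAD1/5) and 0 and 0 (SMAD2) on chromosome 11, with 1 and 12 high for SMAD4. The SMAD1/5 shares were 15.5% and 27.9% on chromosome 8, against 4.63% and 23.5% on the other autosomes. On chromosome 11 they were 14.4% and 11.2%, against 2.80% and 9.56%. For SMAD2 the other autosomes had 0.0264% and 0.0661% on array 1 and 0% and 0% on array 2. The SMAD4 high shares were 0.118% against 0.0793% and 0.865% against 0.519%. Loess gave ratios of 0.19, 0.059 and 0.077 on chromosome 8 and 0.10 for SMAD4 on chromosome 11. The authors' deposited values gave 0.12 (SMAD1/5) and 0.062 (SMAD4) on chromosome 8 and 0.15 and 0.079 on chromosome 11, with SMAD1/5 high and low genes at 3 and 37 and at 8 and 132, and SMAD2 at 1 and 2 on chromosome 8 and 0 high on chromosome 11. The SMAD1/5 shares were 0.355% and 4.38% on chromosome 8, against 0.159% and 5.80% on the other autosomes. On chromosome 11 they were 0.576% and 9.51%, against 0.0786% and 10.2%. For SMAD2 they were 0.118% and 0.237%, against 0.0529% and 0.648%, and 0% high against 0%. With the mean input of the 3 antibodies as denominator the ratio was 0.17 (SMAD1/5) and 0.16 (SMAD4) on chromosome 8 and 0.095, -0.0076 and 0.18 on chromosome 11. Low genes were then 0, 34 and 4 on chromosome 8 and 1, 50 and 5 on chromosome 11, with 0 high for SMAD2 and SMAD4 on both. The low shares were 0%, 4.02% and 0.473% on chromosome 8, against 0.198%, 3.33% and 1.31% on the other autosomes. On chromosome 11 they were 0.0720%, 3.60% and 0.360%, against 0.236%, 2.77% and 1.09%. High genes of SMAD2 and SMAD4 on the other autosomes were 0.0661% and 0.0132% on array 1 and 0% and 0.0157% on array 2. With the dependence on own input signal taken out, the ratio was 0.11 (SMAD2) and 0.17 (SMAD4) on chromosome 8 and 0.35, 0.16 and 0.18 on chromosome 11. Means over probes gave 0.30 (SMAD1/5) and -0.050 (SMAD4) on chromosome 8 and 0.19, 0.099 and -0.049 on chromosome 11, with an SMAD1/5 precipitate of 0.67 there. Medians over genes gave 0.30 and -0.066 (SMAD1/5, SMAD4) on chromosome 8 and 0.19 and -0.044 on chromosome 11, and without the promoter trend 0.25 and -0.077 on chromosome 8. With only probes well above background the input was 0.15 (SMAD1/5) and 0.34 (SMAD2) on chromosome 8 and 0.31 and 0.34 on chromosome 11, and the SMAD1/5 precipitate 0.42 and 0.47. Within 1000 bp of a start site the SMAD1/5 ratio of chromosome 8 was 0.37 and the precipitate of chromosome 11 0.48. Matching on length and class gave inputs of 0.33 (SMAD1/5) and 0.37 (SMAD2), an SMAD2 precipitate of 0.41 and an SMAD2 ratio of 0.016 on chromosome 11. With each chromosome centred on its own median SMAD1/5 had 30 and 79 low genes. These were 3.55% against 1.67% on the other autosomes and 5.69% against 4.18%.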
